A study of Mus musculus with 16 samples.

Results

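Liver glycogen is made and broken down by a short chain of enzymes whose activity is set by a phosphatase held on the glycogen particle, and 7 genes of this system were followed in 16 mouse livers. The members were taken by gene symbol, without regard to their values: the phosphatase-targeting subunits Ppp1r3b, Ppp1r3c and Ppp1r3g, and the enzymes Gys2, Gbe1, Ugp2 and Pygl. All 7 were found among the 17410 genes of the deposited tables. The livers came from 2 experiments on ChREBPα, an isoform of the sugar-sensing transcription factor encoded by Mlxipl, with 4 livers in each of 4 groups. For the deletion, Chrebpα-flox/flox animals were given adeno-associated virus carrying Cre under the hepatocyte promoter TBG (Chrebpα-LKO, livers 21 to 24) or the same virus type with GFP under that promoter (Chrebpα-WT, livers 17 to 20). Both groups therefore carried the floxed allele and a virus, and both ate a NASH diet for 12 weeks, with 40% of calories from palm oil fat, 20% from fructose, and 2% cholesterol. In the overexpression experiment, wildtype mice that were 2 months old at the start received an adenovirus for Chrebpα (Ad-Chrebpα, livers 13 to 16) or for GFP (Ad-GFP, livers 9 to 12). They ate the choline-free HFLMCD diet, with 45% of calories from fat and 0.1% added methionine, for 3 weeks, of which the last 1 followed the adenovirus. Sex, strain and feeding state at dissection were not stated, nor that each liver sample came from a separate animal.

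Glucose that enters a hepatocyte is phosphorylated, converted to UDP-glucose by the product of Ugp2, and joined into chains by glycogen synthase (Gys2), while the branching enzyme (Gbe1) adds the branch points. Glycogen phosphorylase (Pygl) takes the chains apart again when blood glucose falls. Protein phosphatase 1 switches the synthase on and the phosphorylase off, and it reaches them through glycogen-targeting subunits, which bind both the phosphatase and glycogen. ChREBP itself is activated by glucose and fructose metabolites and is best known for inducing glycolytic and lipogenic genes in liver.

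Libraries held 21569511 to 32110154 expected counts in LKO-labelled livers, 21254937 to 40327264 in WT livers, 29640300 to 33996245 in Ad-Chrebpα-labelled livers and 32131999 to 36163207 in Ad-GFP livers. The whole-gene FPKM of Mlxipl (fragments per kilobase, scaled to library size) did not separate the groups: it ran from 47.5 to 100.1 in LKO-labelled and 50.1 to 80.4 in WT livers, and from 44.7 to 47.8 in Ad-Chrebpα-labelled and 39.0 to 48.5 in Ad-GFP livers. Neither the deleted exon nor the counting of vector RNA is stated, so the labels were taken as given and the 2 altered groups are called LKO-labelled and Ad-Chrebpα-labelled. Pairs of livers were compared by chi-square per degree of freedom of their counts, which is larger where counts are less alike. Liver 21 stood apart from the other LKO-labelled livers (169 to 240, against 58.3 to 99.8 among the others). Liver 14 stood apart from the other Ad-Chrebpα-labelled livers (39.7 to 43.3, against 17.2 to 27.4). WT liver 17 was also far from livers 19 and 20 (219 and 155), but less so from liver 18 (79.5). Without liver 21 the deletion comparison called 420 genes in place of 0, and without liver 14 the overexpression comparison called 1722 in place of 1110. Leaving out liver 17 kept the deletion count at 0. Hepatocyte markers were high in every liver, with the FPKM of 10 markers summing to 36850 or more. In bulk liver RNA, fewer cells of a type and less RNA per cell cannot be told apart.

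Among the members, the enzymes were the abundant genes and the targeting subunits the scarcer ones. Per length, Ugp2 had the highest mean FPKM in all 4 groups, with 190.6 ± 21.2 in LKO-labelled, 171.0 ± 66.9 in WT, 178.0 ± 27.6 in Ad-Chrebpα-labelled and 173.7 ± 17.5 in Ad-GFP livers (SD, n = 4 each). Gys2 and Pygl lay close to each other, at group means of 105.9 to 124.0 FPKM for Gys2 and 103.1 to 151.8 FPKM for Pygl, and Gbe1 at 42.5 to 69.8 FPKM. Of the targeting subunits, Ppp1r3b had group means of 31.6 to 46.8 FPKM, Ppp1r3c 5.39 to 8.72 FPKM and Ppp1r3g 0.23 to 7.28 FPKM. The spread between livers of 1 group also differed: the coefficient of variation of FPKM was 6.73% to 14.4% for Gys2, and 20.4% to 96.6% for Ppp1r3g.

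**Figure D1:**
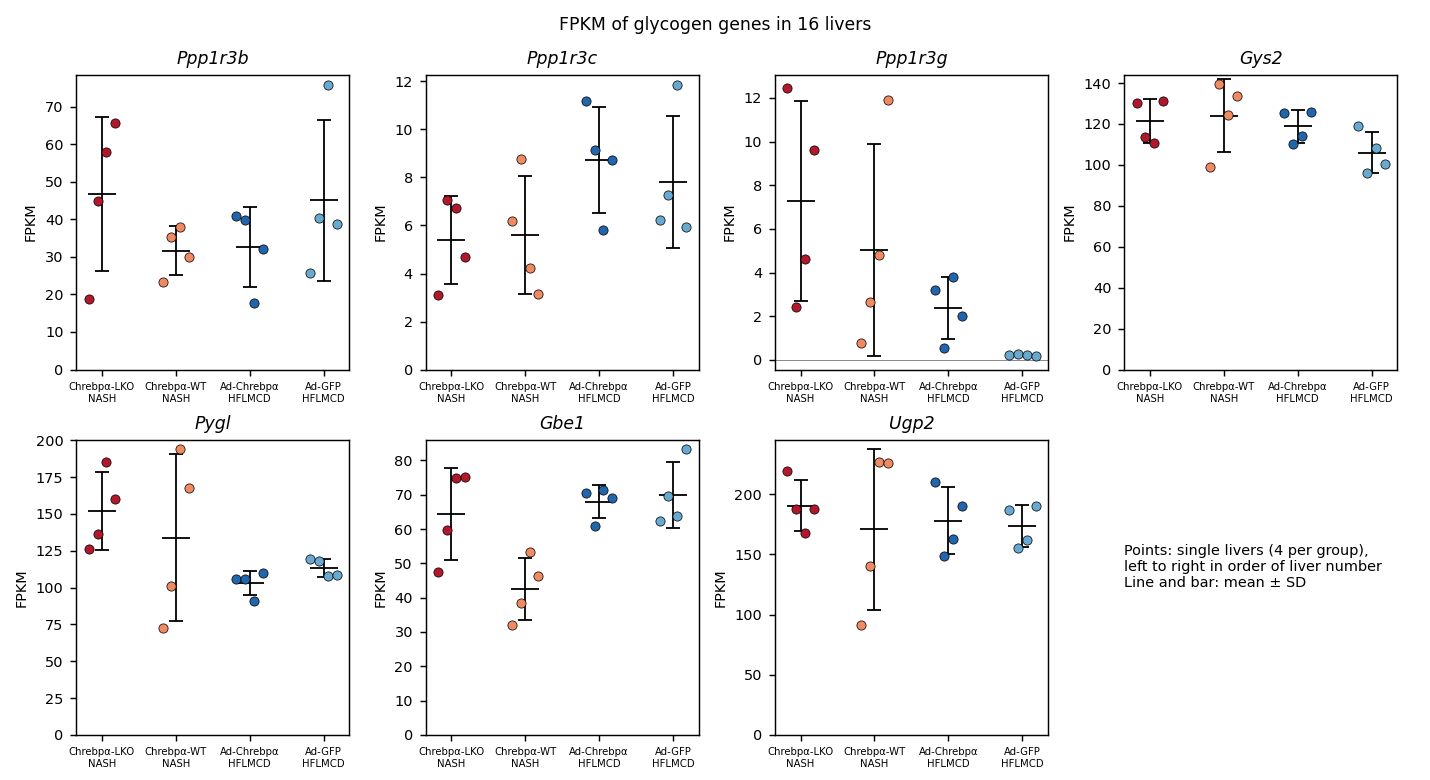
FPKM of each member (y axis, from 0 or just below, linear) in the single livers of the 4 groups (x axis), with the mean and SD of 4 livers. Ppp1r3g sits at 0.54 to 3.78 FPKM in the Ad-Chrebpα-labelled livers and at 0.18 to 0.29 FPKM in the Ad-GFP livers, while the groups of each experiment overlap for the other members.

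Ppp1r3g was the member that changed with Chrebpα virus. This subunit binds protein phosphatase 1 and glycogen, and in mouse liver it is known to vary with feeding. Its FPKM was 3.20, 0.54, 3.78 and 2.03 in the Ad-Chrebpα-labelled livers 13 to 16, and 0.24, 0.29, 0.21 and 0.18 in the Ad-GFP livers 9 to 12. Every Ad-Chrebpα-labelled liver was above every Ad-GFP liver, with liver 14 the lowest of its group and nearest to the controls. The underlying expected counts were 236, 43, 261 and 143 in Ad-Chrebpα-labelled livers and 18, 22, 16 and 15 in Ad-GFP livers. Ppp1r3g rose 10.9-fold (edgeR log2 fold change 3.45, SE 0.54, 95% interval 2.24 to 4.66, adjusted p = 0.00737), which ranked 13 by size among 13658 genes tested. It was the 1 member of 7 called higher and the 1 whose groups did not overlap. Of all genes tested, 8.13% were called (4.95% higher and 3.18% lower) and 19.4% had groups that did not overlap. Leaving out any 1 of the 8 livers kept the call, with log2 fold changes of 3.16 to 3.78 and adjusted p of 0.000201 to 0.0265. limma-voom gave 3.08 with an adjusted p of 0.0521, above the threshold of 0.05, and on log2(FPKM + 1), which understates changes of low genes, the value was 1.34 (limma adjusted p = 0.0281). In the RefSeq table of build GRCm38.p6 the model of Ppp1r3g on chromosome 13 overlaps that of the long noncoding RNA Gm30127. Strand-specific counting is not stated, so reads of both genes cannot be told apart. Of the 20 tested genes beside Ppp1r3g on the chromosome, 10 on each side, 4 were called in the same comparison. The same count was 4 around Ppp1r3c, which was not called, and 0 to 3 around the other members.

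The promoter windows of the subunit that changed and of the one that carries an E-box are shown because ChREBP and its partner Mlx are known to bind paired E-box-like sequences. They were read from the RefSeq promoter table (GRCm38.p6) and span 250 bases before to 50 after the start of the gene, 5′ to 3′ on the gene's strand, with the letters CACGTG in capitals. The Ppp1r3g window lies at chr13:35967656-35967955 on the plus strand and holds no match. The Ppp1r3c window lies at chr19:36736555-36736854 on the minus strand and holds 1 match, whose first base is at -104 from the start.
Ppp1r3g: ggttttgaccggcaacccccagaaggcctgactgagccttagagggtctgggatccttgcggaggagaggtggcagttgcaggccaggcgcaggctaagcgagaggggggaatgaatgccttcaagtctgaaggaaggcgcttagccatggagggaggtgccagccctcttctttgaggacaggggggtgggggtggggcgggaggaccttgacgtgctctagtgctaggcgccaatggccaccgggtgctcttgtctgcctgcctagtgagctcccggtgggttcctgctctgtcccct
Ppp1r3c: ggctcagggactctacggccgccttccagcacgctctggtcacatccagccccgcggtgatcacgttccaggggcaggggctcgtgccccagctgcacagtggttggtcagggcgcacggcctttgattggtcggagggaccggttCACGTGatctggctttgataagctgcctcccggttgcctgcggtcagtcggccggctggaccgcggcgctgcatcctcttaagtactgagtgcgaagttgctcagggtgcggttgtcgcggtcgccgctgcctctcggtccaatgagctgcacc
The search for CACGTG, which reads the same on both strands, covered the 6 windows listed for 5 of the members, and the windows of Gbe1, Pygl and Ugp2 held no match. Among all 32851 windows of the table, 7.15% held CACGTG. A search for the spaced double motif known as the carbohydrate response element (ChoRE) matched none of the members' windows and 0.12% of all windows. The promoters of Gys2 and Ppp1r3b were not among the matched entries. A missing match says only that these letters are not in the window.

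In the deletion experiment Ppp1r3g did not differ beyond the spread between livers. Its FPKM was 12.5, 2.44, 4.62 and 9.61 in the LKO-labelled livers 21 to 24, and 0.79, 2.66, 4.79 and 11.9 in the WT livers 17 to 20. The groups overlapped almost completely, and the range within WT livers alone was 15.1-fold. The edgeR log2 fold change was 0.42 (95% interval -1.18 to 2.01, adjusted p = 0.776). It was -0.02 without liver 21 and 1.22 without liver 20, so its sign rested on single livers.

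Ppp1r3b, the targeting subunit best known from liver, did not pass in either experiment. Its FPKM was 18.9, 44.8, 58.0 and 65.6 in the LKO-labelled livers 21 to 24, and 23.2, 35.4, 37.9 and 29.9 in the WT livers 17 to 20. Livers 22, 23 and 24 were above every WT liver and liver 21 was below them all, and the log2 fold change was 0.41 (95% interval -0.32 to 1.13, edgeR adjusted p = 0.546), or 0.66 without liver 21 (adjusted p = 0.0704). With added Chrebpα virus the FPKM of Ppp1r3b was 40.8, 39.8, 17.6 and 32.1 in livers 13 to 16, against 25.6, 40.2, 75.6 and 38.6 in the Ad-GFP livers 9 to 12. The groups overlapped, and the log2 fold change of -0.39 (95% interval -1.14 to 0.36, edgeR adjusted p = 0.494) was near 0, at -0.003, without liver 11. The expected counts of Ppp1r3b carried decimals, as counts do where reads are shared out between similar entries, and how this was done is not stated.

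Ppp1r3c, also called protein targeting to glycogen, likewise stayed within the spread of the groups. It had 3.12, 7.06, 6.71 and 4.67 FPKM in LKO-labelled livers 21 to 24, and 6.20, 8.76, 4.24 and 3.16 FPKM in WT livers 17 to 20. In the other experiment it had 11.2, 9.14, 5.81 and 8.74 FPKM in Ad-Chrebpα-labelled livers 13 to 16, and 6.22, 7.29, 11.9 and 5.93 FPKM in Ad-GFP livers 9 to 12. The groups overlapped in both experiments, with log2 fold changes of -0.22 (95% interval -1.04 to 0.60, edgeR adjusted p = 0.773) for the deletion and 0.23 (-0.33 to 0.79, 0.598) for the virus. Liver 11 was the highest of the Ad-GFP group for both Ppp1r3b and Ppp1r3c.

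The make-up of the 3 subunits was read from their FPKM. As a share of the sum, Ppp1r3g made up 14.8% ± 14.6 in LKO-labelled, 11.2% ± 10.6 in WT, 6.38% ± 5.40 in Ad-Chrebpα-labelled and 0.50% ± 0.23 in Ad-GFP livers (SD, n = 4 each). The highest share was 36.2% in liver 21, and the highest among WT livers was 26.5% in liver 20. Ppp1r3b held the majority in all 16 livers, from 54.8% in liver 21 to 86.3% in an Ad-GFP liver. These shares are a description of the same FPKM values and carry no test of their own.

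**Figure D2:**
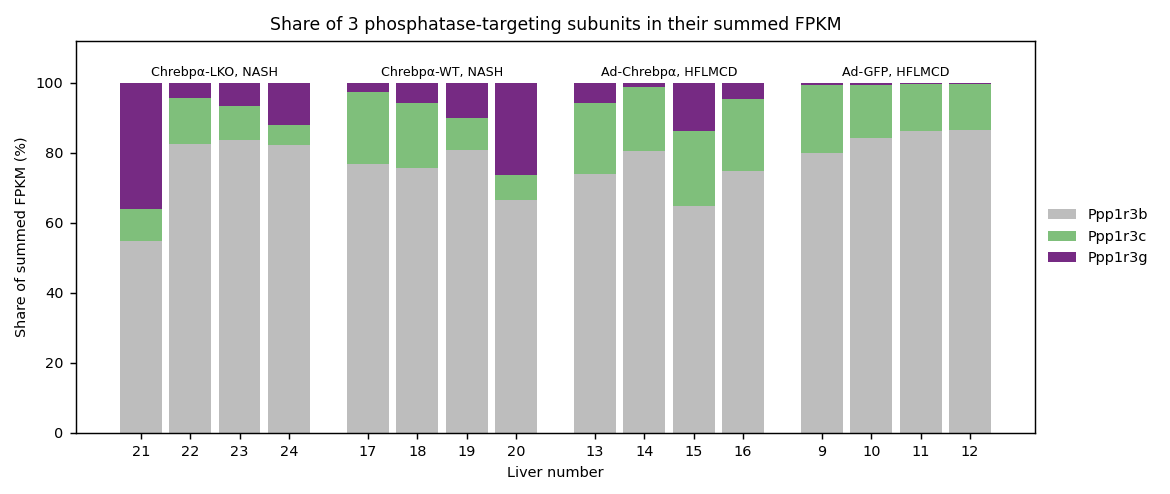
Share of Ppp1r3b, Ppp1r3c and Ppp1r3g in their summed FPKM (y axis, percent) for each liver (x axis, liver number), grouped by label. Ppp1r3g takes 0.24% to 0.75% in the Ad-GFP livers and up to 36.2% in liver 21.

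The enzymes of synthesis showed small differences, none of which passed over all genes. Gys2, the liver glycogen synthase, had 126, 110, 114 and 126 FPKM in the Ad-Chrebpα-labelled livers 13 to 16, and 119, 95.9, 108 and 100 FPKM in the Ad-GFP livers 9 to 12. The highest Ad-GFP liver lay inside the Ad-Chrebpα-labelled range and the other 3 below it, and the log2 fold change was 0.24 (SE 0.09, 95% interval 0.03 to 0.44, unadjusted p = 0.0278, edgeR adjusted p = 0.136). In LKO-labelled livers Gys2 averaged 121.4 ± 10.7 FPKM, and in WT livers 124.0 ± 17.8 FPKM (SD, n = 4 each), a log2 fold change of -0.18 (-0.48 to 0.12, edgeR adjusted p = 0.512).

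Gbe1, the branching enzyme, had the lowest p of the members in the deletion experiment. It had 47.5, 59.7, 74.9 and 75.2 FPKM in LKO-labelled livers 21 to 24, and 32.2, 38.5, 53.2 and 46.3 FPKM in WT livers 17 to 20. Livers 22, 23 and 24 were above every WT liver, and liver 21 lay inside the WT range. The log2 fold change of 0.45 (SE 0.18, 95% interval 0.05 to 0.85) had an unadjusted p of 0.0311 and an edgeR adjusted p of 0.357. Of all 12786 genes tested, 13.6% had an unadjusted p below 0.05. With Chrebpα virus Gbe1 averaged 67.9 ± 4.78 FPKM, and in Ad-GFP livers 69.8 ± 9.60 FPKM (SD, n = 4 each), with a log2 fold change of 0.03 (-0.18 to 0.24, edgeR adjusted p = 0.857).

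Ugp2, which makes the UDP-glucose that the synthase uses, had 219.0, 187.8, 167.6 and 188.1 FPKM in LKO-labelled livers 21 to 24, and 91.3, 140.0, 226.6 and 226.1 FPKM in WT livers 17 to 20. The LKO-labelled livers all lay between the low pair and the high pair of WT livers, and the log2 fold change was 0.03 (95% interval -0.55 to 0.60, edgeR adjusted p = 0.964). In the other experiment it averaged 178.0 ± 27.6 FPKM in Ad-Chrebpα-labelled and 173.7 ± 17.5 FPKM in Ad-GFP livers (SD, n = 4 each), with a log2 fold change of 0.11 (-0.17 to 0.39, edgeR adjusted p = 0.63). In the RefSeq table the model of Ugp2 overlaps those of Vps54 and Mir1933, so its reads could include theirs.

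Pygl, the liver phosphorylase, had 126.0, 136.3, 185.2 and 159.8 FPKM in LKO-labelled livers 21 to 24, and 72.7, 101.2, 194.2 and 167.8 FPKM in WT livers 17 to 20. As with Ugp2, WT livers 17 and 18 were low and livers 19 and 20 high, and the groups overlapped (log2 fold change 0.05, 95% interval -0.57 to 0.67, edgeR adjusted p = 0.937). It averaged 103.1 ± 8.39 FPKM in Ad-Chrebpα-labelled and 113.4 ± 6.04 FPKM in Ad-GFP livers (SD, n = 4 each), with a log2 fold change of -0.07 (-0.23 to 0.10, edgeR adjusted p = 0.614). The FPKM of Gys2 divided by that of Pygl was 1.04 to 1.26 in Ad-Chrebpα-labelled livers and 0.81 to 1.00 in Ad-GFP livers, without overlap. In the deletion experiment the same ratio was 0.60 to 1.03 in LKO-labelled and 0.64 to 1.38 in WT livers. The ratio was computed after both genes had been examined and was not tested. Gys2 and Pygl alone each overlapped between Ad-Chrebpα-labelled and Ad-GFP livers, where 19.4% of all single genes did not.

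In the deletion comparison edgeR called 0 of the 7 members, as it did 0% of all genes, and DESeq2 and limma-voom also called 0 members, beside 1.24% and 0% of all genes. At an unadjusted p below 0.05 there was 1 member, Gbe1, beside the 13.6% of all genes given above. The members' median log2 fold change was 0.05, beside 0.01 over all genes tested, and 5 of 7 were positive. In the overexpression comparison their median was 0.11, beside -0.01 over all genes, and again 5 of 7 were positive.

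**Figure D3:**
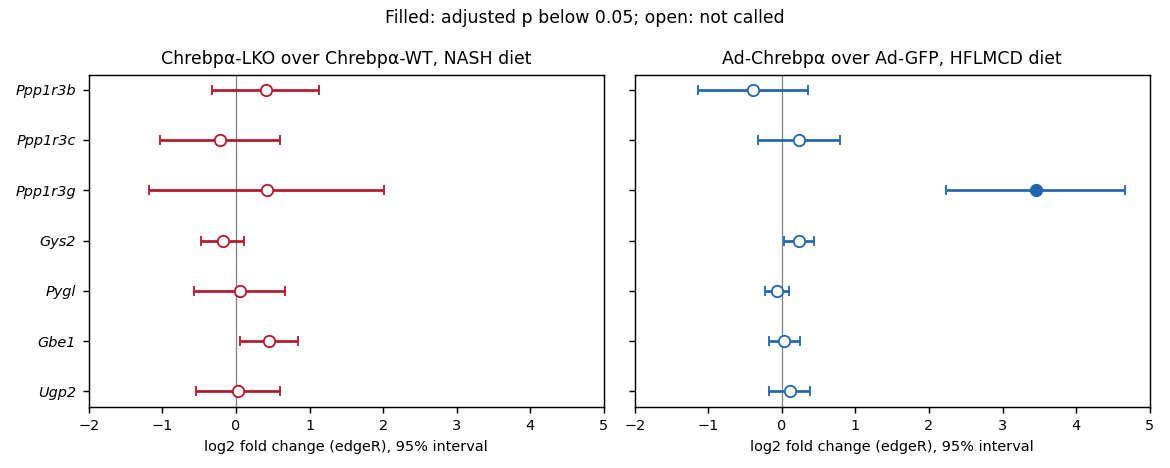
edgeR log2 fold changes (x axis) with 95% intervals for each member, LKO-labelled over WT livers on the left and Ad-Chrebpα-labelled over Ad-GFP livers on the right. The filled point is Ppp1r3g at 3.45 in the overexpression experiment, the single member with an adjusted p below 0.05.

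The difference of each member's log2 fold changes, deletion less virus, was estimated and tested in 1 fit of all 16 livers. It therefore need not equal the difference of the values from the fits of 8 livers. By the labels the deletion removes Chrebpα and the virus adds it, so a gene that follows Chrebpα in both also gives a difference. Diet, its length, virus type and allele differ between the experiments as well and cannot be told apart from this. Of the members, 0 were called by edgeR, beside 2.6% of 13830 genes, and 2 had an unadjusted p below 0.05, which 20.9% of all genes had. For Ppp1r3g the difference was -3.05 (95% interval -5.29 to -0.82, unadjusted p = 0.0103, edgeR adjusted p = 0.115). DESeq2 gave it an adjusted p of 0.0473 (difference -3.03), the 1 call in 8 other settings. The highest there was 0.606, by limma on log2(FPKM + 1) without a filter. Without liver 21 edgeR gave 0.045 (-3.49), the 1 call in 16 fits without single livers, whose adjusted p ran up to 0.195. Among all genes DESeq2 called 994 and the fit without liver 21 called 1683, against 359 in the main fit. For Gys2 the difference was -0.44 (-0.77 to -0.11, unadjusted p = 0.0123, edgeR adjusted p = 0.124). It passed without liver 21 (-0.49, adjusted p = 0.0488), in 1 of 16 such fits, and in 0 of 8 other settings. The remaining members had differences of -0.47 for Ppp1r3c to 0.78 for Ppp1r3b, with adjusted p of 0.29 to 0.885.

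Across the 2 experiments the control groups themselves differed, and Ppp1r3g differed most among the members. WT livers on the NASH diet were set against Ad-GFP livers on the HFLMCD diet to place the levels of the 4 groups in order. Diet, its length, virus type, floxed allele and experiment differ together in this comparison and cannot be told apart. Ppp1r3g had 0.79 to 11.9 FPKM in WT livers and 0.18 to 0.29 FPKM in Ad-GFP livers, and on counts it was 33.1-fold higher in WT livers (log2 fold change 5.05, 95% interval 3.40 to 6.70, edgeR adjusted p = 0.000257). WT liver 20 was the highest, and leaving it out gave 4.23 on the log2 scale, the lowest of 4.23 to 5.41 over single livers left out (adjusted p 3.42e-05 to 0.00145). Gys2 had 0.85 (0.57 to 1.13, edgeR adjusted p = 0.000291) and Pygl 0.85 (0.31 to 1.39, edgeR adjusted p = 0.0126), so 3 members were called higher and 0 lower, beside 59.1% of all genes called, 28.2% higher and 30.9% lower. Ugp2 had 0.58 (edgeR adjusted p = 0.0588). It was called without liver 17 (0.79, adjusted p = 0.0031), in 1 of 8 such fits. DESeq2 also called it (0.59, adjusted p = 0.0279), 1 of 2 calls in 9 other settings. Cell type markers differed between the same groups: edgeR called 10 of 10 hepatocyte markers higher in WT livers (median log2 fold change 1.12), and 6 of 8 macrophage, 4 of 6 lymphocyte, 4 of 6 stellate and 3 of 6 cholangiocyte markers lower, with 1 macrophage marker higher. Of 6 sinusoidal endothelium markers it called 0. In raw FPKM the groups did not overlap for 5 of the 10 hepatocyte markers. Apob (459.6 in WT, 476.6 in Ad-GFP livers) and Asgr1 (269.7 and 281.6) averaged lower in WT livers, and the rest higher. The part of the markers in the members' values was not tested.

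These calls depended on the scale, except that of Ppp1r3g. All genes together had a median of -0.44 on log2(FPKM + 1) in WT livers against Ad-GFP livers, and of -0.01 on counts. On that scale Gys2 had 0.22 (limma adjusted p = 0.108) and Pygl 0.14 (0.652), Gbe1 was called lower at -0.72 (0.00185; -0.10 on counts, edgeR adjusted p = 0.586), and Ppp1r3g kept its call at 1.94 (0.00434). In raw FPKM 2 members did not overlap between these groups, Ppp1r3g higher and Gbe1 lower in WT livers, beside 73.4% of all genes.

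Ordered by mean log2 CPM (counts scaled to library size) after TMM scaling, Ppp1r3g ran from LKO-labelled (4.03) over WT (3.32) and Ad-Chrebpα-labelled (1.95) to Ad-GFP livers (-1.05), and of these neighbours the last pair did not overlap. The Ad-Chrebpα-labelled livers thus overlapped with WT livers on the NASH diet, at 0.17 to 2.90 and 1.36 to 5.08. Gys2 ran from WT (8.73) over LKO-labelled (8.55) and Ad-Chrebpα-labelled (8.08) to Ad-GFP livers (7.83), where the lowest LKO-labelled liver (8.45) was above the highest Ad-Chrebpα-labelled liver (8.20). Pygl ran from LKO-labelled (8.94) over WT (8.82) and Ad-GFP (8.01) to Ad-Chrebpα-labelled livers (7.95), where the lowest WT liver (8.128) and the highest Ad-GFP liver (8.119) all but met. For Ppp1r3b, Ppp1r3c, Gbe1 and Ugp2 every pair of neighbouring groups overlapped. In FPKM the neighbouring groups of Gys2 and Pygl overlapped as well, and the Ad-Chrebpα-labelled and Ad-GFP livers for Ppp1r3g were the 1 neighbouring pair of any member that did not.

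Within groups, no pair of members passed a test of moving together from liver to liver. Each liver's deviation from its group's mean (log2 CPM) was compared for 21 pairs of members over 16 livers, with Benjamini-Hochberg adjustment over the pairs of a permutation test of 100000 resamples. The highest coefficients were 0.72 for Pygl and Ugp2 (Spearman's rho 0.50, Pearson p = 0.0865, Spearman p = 0.204) and 0.71 for Ppp1r3g and Ugp2 (rho 0.61, p = 0.0202 and 0.0452). Their adjusted p were 0.26 and 0.451 for the first pair, and 0.141 and 0.317 for the second. Livers 17 and 20 were the lowest and the highest of the WT group for Ppp1r3g, at deviations of -1.96 and 1.75. Without the 2 livers farthest from the median of the first gene the coefficients were 0.31 and 0.49, and for Pygl and Ugp2 they were 0.78 in the NASH livers and 0.46 in the HFLMCD livers.

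The coefficients within each experiment stand beside those of the next pairs, and the difference between experiments was not tested. Ppp1r3g and Ugp2 had a coefficient of 0.82 in the NASH livers and 0.42 in the HFLMCD livers (8 livers each). Pygl and Gbe1 had 0.68 over all livers (rho 0.53, p = 0.0145 and 0.073, adjusted p = 0.141 and 0.32; 0.47 without the 2 farthest), with 0.85 in NASH and -0.27 in HFLMCD livers. The subunits Ppp1r3b and Ppp1r3c had 0.63 (rho 0.62, p = 0.0107 and 0.0193, adjusted p = 0.141 and 0.231; 0.45 without the 2 farthest), with 0.43 and 0.93. Ppp1r3c and Ppp1r3g had a negative coefficient of -0.60 (rho -0.65, p = 0.0434 and 0.022, adjusted p = 0.228 and 0.231; -0.54 without the 2 farthest), with -0.81 in NASH and -0.17 in HFLMCD livers.

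**Figure D4:**
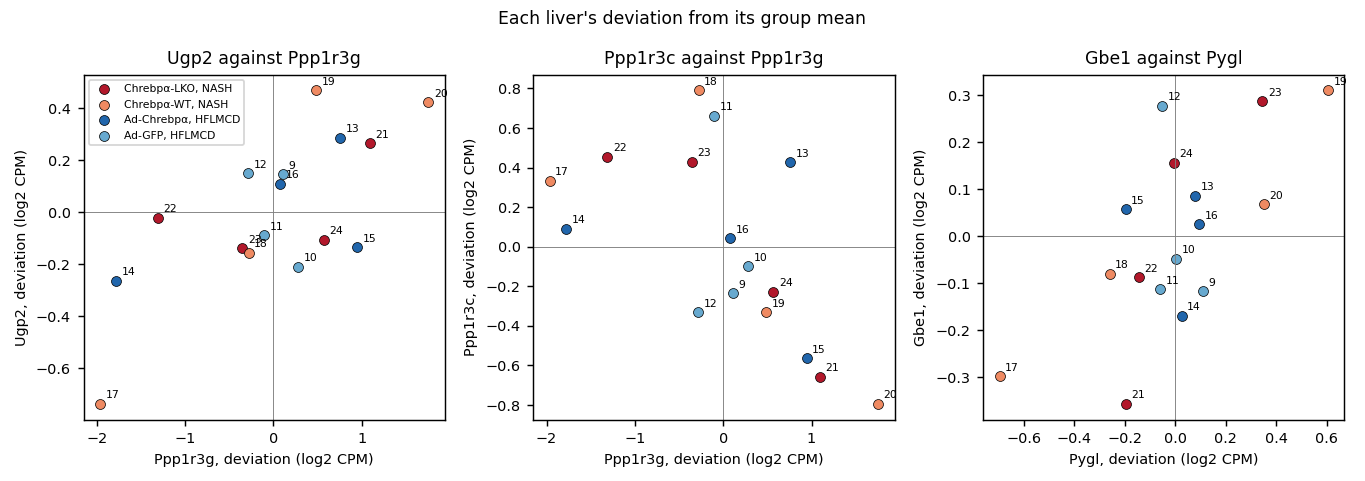
Deviation of each liver from its group mean in log2 CPM, for Ugp2 and for Ppp1r3c (y axes) against Ppp1r3g, and for Gbe1 against Pygl, with liver numbers. The coefficients over the 16 livers are 0.71, -0.60 and 0.68.

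The genes most like each member in these deviations were drawn from 10920 other genes averaging 1 FPKM or more, as a description over 16 livers. Pygl was most like Pklr, the liver pyruvate kinase (coefficient 0.93, or 0.95 in NASH and 0.55 in HFLMCD livers), Acaca, the acetyl-CoA carboxylase (0.93, or 0.95 and 0.47), and Fam198a (0.93, or 0.95 and 0.76). Ugp2 was most like Pank1, a pantothenate kinase (0.89, or 0.93 in NASH and 0.76 in HFLMCD livers), Enpep (0.86, or 0.91 and 0.60) and Mycl (0.85, or 0.95 and 0.35). For the genes nearest the other members both coefficients lay between 0.67 and 0.95. Ppp1r3g was most like Tom1l2 (0.84), 3110062M04Rik (0.82) and Napsa (0.82), and Ppp1r3c was most like Mfap1a (0.91), Ermard (0.89) and Cyp2c54 (0.88). Ppp1r3b went with Cdc42ep1 (0.87), Anks4b (0.87) and Tnks1bp1 (0.86). Gys2 went with Atp5s (0.91), Kin (0.81) and Fam204a (0.76), and Gbe1 with Tamm41 (0.89), Haus7 (0.89) and Hmg20b (0.88). No member was among the 3 nearest genes of another.

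Around the members, 32 other genes of glycogen metabolism were read from lists of enzymes, regulators and glucose exchange. Of 11 other enzymes and glycogen-bound proteins, 2 rose and 1 fell in Ad-Chrebpα-labelled livers, beside the 4.95% and 3.18% of all genes given above. Gaa, the lysosomal glucosidase that digests glycogen, had 30.7, 31.7, 34.4 and 30.6 FPKM in Ad-Chrebpα-labelled livers 13 to 16, and 19.1, 19.2, 18.2 and 17.7 FPKM in Ad-GFP livers 9 to 12. The groups did not overlap, and Gaa was 1.81-fold higher in Ad-Chrebpα-labelled livers (log2 fold change 0.86, SE 0.05, edgeR adjusted p = 4.32e-05). It averaged 32.0 FPKM in WT and 35.8 FPKM in LKO-labelled livers, so Ad-GFP livers were the lowest of the 4 groups. Calls among the genes beside Gaa on its chromosome were not counted. Pygb, the brain-type phosphorylase, had 3.75, 4.94, 3.66 and 3.84 FPKM in Ad-Chrebpα-labelled and 8.19, 10.6, 7.23 and 8.56 FPKM in Ad-GFP livers. It fell by 1.02 on the log2 scale (SE 0.12, edgeR adjusted p = 0.00211), again without overlap. Both calls held when any 1 of the 8 livers was left out. Stbd1, which binds glycogen, had 46.1 to 53.4 FPKM in Ad-Chrebpα-labelled and 36.9 to 47.2 FPKM in Ad-GFP livers, with a log2 fold change of 0.39 (edgeR adjusted p = 0.0341).

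Of 13 tested kinases and phosphatase subunits, 1 rose with the virus: Phkg2, the catalytic subunit of liver phosphorylase kinase, at 11.0 to 12.4 FPKM in Ad-Chrebpα-labelled and 8.19 to 10.7 FPKM in Ad-GFP livers (log2 fold change 0.39, edgeR adjusted p = 0.0278). That share is near the 4.95% of all genes called higher. Of 5 genes of glucose and glucose 6-phosphate exchange, edgeR called 0 with the virus, and 2 were higher at an unadjusted p under 0.05, beside 13.5% of all genes. The calls of Stbd1 and Phkg2 each held in 2 of the 8 fits that left out a liver, with adjusted p up to 0.0884 and 0.0767. Both were lost on log2(FPKM + 1) without a filter (limma adjusted p = 0.0555 and 0.0569), and that of Stbd1 also with all 16 libraries in 1 fit (edgeR adjusted p = 0.34). The genes named whatever their values that did not pass were Gys1, the muscle-type synthase (-0.07, adjusted p = 0.777), G6pc, which releases free glucose (-0.09, 0.865), and Gsk3b, a kinase that inhibits the synthase (-0.05, 0.754). List medians were -0.07 for the enzymes, 0.02 for kinases and phosphatases and 0.12 for exchange, beside -0.01 over all genes.

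In the deletion experiment 0 of these 29 tested genes were called by edgeR, 2 had an unadjusted p under 0.05 (13.6% of all genes did), and list medians were 0.16, -0.07 and 0.18. The lowest p belonged to Gyg, glycogenin, the protein primer of glycogen, at 3.68, 3.90, 4.36 and 4.99 FPKM in LKO-labelled livers 21 to 24, and 2.55, 2.06, 3.07 and 2.59 FPKM in WT livers 17 to 20. The groups did not overlap, as for 7.6% of all genes, and the log2 fold change was 0.57 (SE 0.14, edgeR adjusted p = 0.305). Gyg passed by DESeq2 (0.56, adjusted p = 0.046) and with all 16 libraries in 1 edgeR fit (0.55, 0.0362). These were 2 of 9 other settings, and among all genes DESeq2 called 1.24% and the fit of 16 libraries called 152 genes. Gyg passed in 0 of 8 edgeR fits without single livers (adjusted p 0.0587 to 0.665). The others named for their p or by the rule were Phka2, a regulatory subunit of phosphorylase kinase (0.32, edgeR adjusted p = 0.358), Phkg2 (-0.21, 0.394), Gys1 (-0.32, 0.403), G6pc (-0.85, 0.422), G6pc3, a relative of G6pc found in most tissues (0.18, 0.491), and Gsk3b (-0.10, 0.615). Without liver 21, a setting chosen after seeing the data, the count was again 0 in each of the 3 lists. That fit called 166 genes higher and 254 lower of 12975 tested. Without liver 14, chosen likewise, the virus comparison called 2 higher and 3 lower among the 11 enzymes, with Pgm2 and Nhlrc1 added. The other lists gave the same genes as before. Calls also rose among all genes, to 937 higher and 785 lower of 13761, from 676 and 434 of 13658 with all livers.

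**Figure D5:**
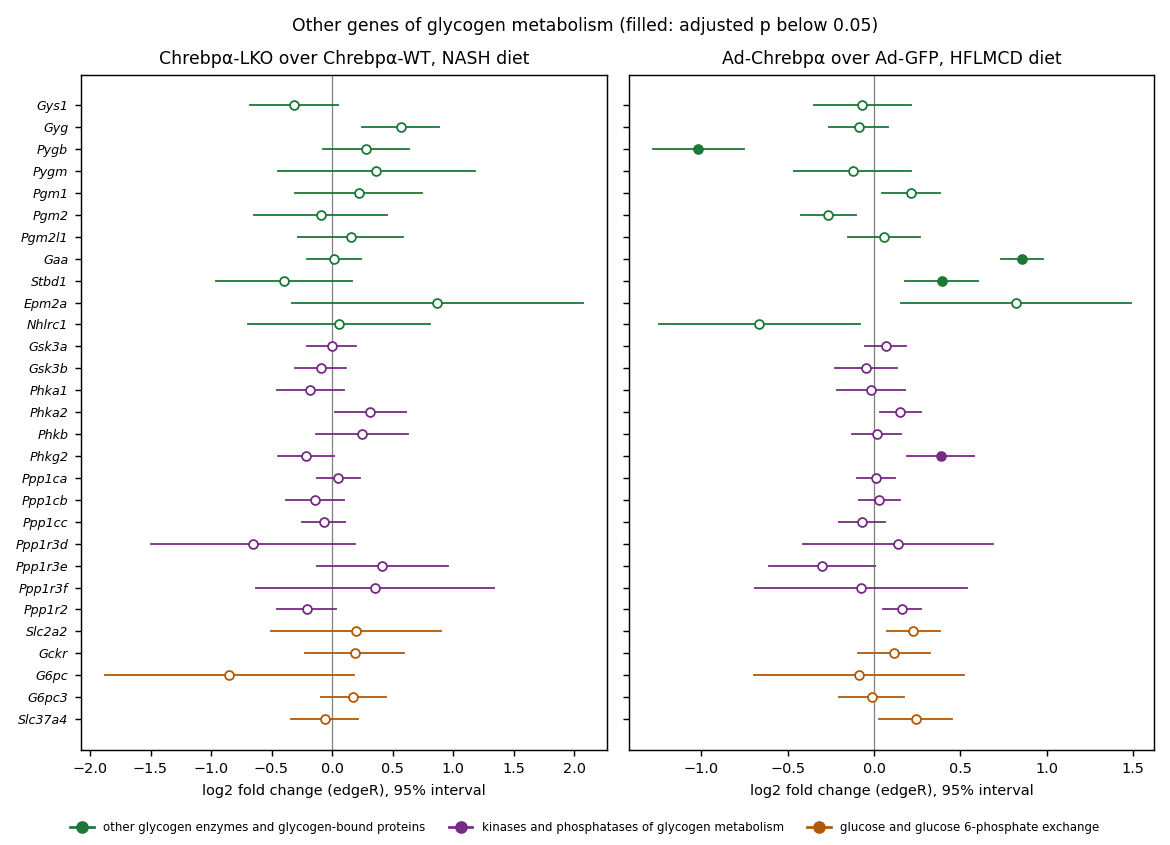
edgeR log2 fold changes (x axes, of different ranges) with 95% intervals for the 29 tested genes of the 3 lists, LKO-labelled over WT livers on the left and Ad-Chrebpα-labelled over Ad-GFP livers on the right. Filled points mark the 4 called genes, Gaa, Stbd1, Pygb and Phkg2, all in the overexpression experiment.

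Markers of cell types were read beside these genes. Of 6 cholangiocyte markers, edgeR called 4 lower in Ad-Chrebpα-labelled livers. Krt19, Epcam, Sox9 and Cftr averaged 0.893, 1.38, 2.01 and 0.0425 FPKM in Ad-Chrebpα-labelled livers, against 2.20, 2.72, 3.14 and 0.265 FPKM in Ad-GFP livers. The summed FPKM of all 6 was 93.4 to 140.1 in Ad-Chrebpα-labelled and 117.6 to 284.0 in Ad-GFP livers and was mostly Spp1, at 105 FPKM in Ad-Chrebpα-labelled and 181 FPKM in Ad-GFP livers (edgeR adjusted p = 0.0803). Without liver 14 the count was 5 lower, with Spp1 added, beside 785 of 13761 genes called lower. In the other lists edgeR called 1 of 8 macrophage markers higher (Itgax), 1 of 10 hepatocyte markers (Apoa1), 1 of 6 stellate cell markers (Ngfr), and 0 of sinusoidal endothelium or lymphocytes, beside 8.13% of all genes. The call of Itgax was lost without liver 14. Summed FPKM ranges overlapped for the macrophage (186.4 to 290.4 in Ad-Chrebpα-labelled, 227.2 to 403.2 in Ad-GFP livers), hepatocyte (39630 to 46020 in Ad-Chrebpα-labelled, 36850 to 45180 in Ad-GFP livers) and stellate lists (255.8 to 303.0 in Ad-Chrebpα-labelled, 245.4 to 355.2 in Ad-GFP livers).

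In the deletion experiment edgeR called 0 markers of any of these cell types, as it did 0% of all genes. At an unadjusted p below 0.05, 4 of 8 macrophage and 2 of 4 tested lymphocyte markers were higher, beside 13.6% of all genes in either direction. Macrophage sums were 42.8 to 96.6 FPKM in LKO-labelled and 32.7 to 62.8 FPKM in WT livers. The sums of 6 lymphocyte markers were low and did not overlap, at 2.34 to 2.86 FPKM in LKO-labelled and 1.18 to 1.91 FPKM in WT livers. Among all single genes 7.6% did not overlap, and the median of all genes on log2(FPKM + 1) was 0.10. Without liver 21, 1 of 10 hepatocyte markers was called lower (Hnf4a), beside 254 of 12975 genes called lower. Of the adipocyte markers, Cfd had 57.0 ± 39.6 FPKM in LKO-labelled and 26.4 ± 30.7 FPKM in WT livers (SD, n = 4 each), while Adipoq and Plin1 averaged at most 0.03 FPKM in every group. The 3 together summed to at most 0.22 FPKM in the other experiment. The sum of 6 skeletal muscle markers stayed at or below 4.16 FPKM in every liver, with Myh4 listed at 0 in LKO-labelled, WT and Ad-GFP livers. The part of these differences in the members' values was not tested.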

How the data were processed

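RNA of 16 mouse livers was sequenced as 1 library each. Per the file headers, the deposited tables hold expected counts (estimated fragments per gene, not normalised) and FPKM as calculated by the authors. HISAT2 is named in the submitters' processing notes, and the sources used here name no counting program, build, annotation or strand. Many expected counts carry decimals, as they do where reads are shared between similar entries, so values of similar genes are uncertain. Entries of 26 transcripts were summed into their gene. Groups came from the sample labels, which do not state that each sample is a separate animal, so the p-values reflect the spread of these samples, which may be technical. Libraries of 1 group differed by more than sampling noise (chi-square per degree of freedom 17.2 to 240.3).

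Rounded expected counts went into the two-sided quasi-likelihood F test of edgeR (version 4.0.16, R 4.3.3) with filterByExpr and TMM normalisation, in fits of 8 libraries, or 16 for the difference between experiments. A gene was called at a Benjamini-Hochberg adjusted p under 0.05 over all genes tested, and all 7 members passed the filter in each fit. Alternatives used DESeq2 1.42.0, limma 3.58.1 (voom, or log2 of FPKM with a pseudocount of 1 or 0.1), other filters and size factors, a fold of at least 1.5, all libraries together, and leaving out each liver. Correlations used log2 CPM with a prior count of 2, and permutation was within groups. The edgeR test was also run on simulated counts, in which no liver was made to stand apart from its group. That run cannot show how the test handles such livers, and nothing is drawn from it here. Tables used pandas 2.3.3 and NumPy 2.4.6 under Python 3.11.15, and plots matplotlib 3.10.9.

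The text names all members. Of the other lists it names each gene called in the deletion or overexpression comparison, or without any called the 2 with the lowest p of each list, and Gys1, G6pc and Gsk3b whatever their values. Some genes of the lists are not reported here, and the counts leave them out. It also names the 3 genes most like each member, while Pgm2, Nhlrc1 and the overlapping genes were named after their values were seen. The members and lists were chosen with earlier results of these data known.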

Additional observations from a re-analysis of the deposited data

Results flagged for a closer look

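Of 17 genes examined in the 4 groups, 1 value lay far from the other 3 of its group by Dixon's criterion, which chance alone meets in about 1 in 20 groups. It did not belong to a member. Liver 14 had the highest Pygb in the Ad-Chrebpα-labelled group, at 4.94 FPKM against 3.66 to 3.84 FPKM in livers 13, 15 and 16.

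For 4 other genes of glycogen metabolism edgeR called the difference of the log2 fold changes, deletion less virus, over 16 livers. They were 2 positive and 1 negative of 11 enzymes, 1 negative of 13 kinases and phosphatases and 0 of 5 exchange genes. Of all 13830 genes tested, 2.6% were called. Pygb, Gaa and Phkg2 had been called with the virus, and Gyg had the lowest p with the deletion. Their differences reuse those values and are no separate support, and a gene that follows Chrebpα in both experiments also gives a difference. The difference was 0.63 for Gyg (edgeR adjusted p = 0.0421, 0.0142 to 0.0914 without single livers, called in 3 of 16 such fits, and 0.0526 without a filter), beside 0.57 with the deletion and -0.09 with the virus. It was 1.28 for Pygb (edgeR adjusted p = 0.00464, up to 0.0129 without single livers), beside 0.28 and -1.02. It was -0.86 for Gaa (edgeR adjusted p = 0.000682, up to 0.00437 without single livers), beside 0.02 and 0.86. It was -0.62 for Phkg2 (edgeR adjusted p = 0.0283, up to 0.0806 without single livers, called in 7 of 16 such fits), beside -0.21 and 0.39. On the FPKM scales the Phkg2 difference was -0.38 to -0.35 and not called (limma adjusted p = 0.056 to 0.0589). The experiments also differ in diet, its length, virus type and allele, which cannot be told apart from the direction of the Chrebpα change.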

How the results depend on the processing

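No paired analysis was possible because the replicate numbers, 9 to 24, are shared by no 2 groups. The count of genes called in the deletion comparison was 158 by DESeq2, 152 with all 16 libraries in 1 fit, and 0 to 420 without single livers. In the overexpression comparison it was 444 at a fold of at least 1.5, 1944 by DESeq2, 336 with all 16 libraries, and 400 to 1722 without single livers, and 60.9% of calls were higher on counts, 30.2% on log2(FPKM + 1) and 70.2% with all 16 libraries. Between control groups it was 5017 at a fold of at least 1.5, with 47.7% of calls higher on counts and 7% on log2(FPKM + 1). For the difference between experiments it was 994 by DESeq2, 1031 on log2(FPKM + 1), 978 with a pseudocount of 0.1, 857 without a filter on FPKM, and 120 to 1683 without single livers, with 37.6% of calls positive on counts and 90% on log2(FPKM + 1).

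All genes together had a median on log2(FPKM + 1) of 0.10 in the deletion, -0.06 in the overexpression and -0.44 in the control comparison, and changes on that scale are relative to it. Signs turned on FPKM (pseudocount 1, with or without filter; then 0.1) for Gsk3b with the deletion (0.048; 0.058), Gbe1 with the virus (-0.033; -0.033), Ppp1r3b (-0.41; -0.42), Ppp1r3c (-0.45; -0.52) and Ugp2 (-0.11; -0.11) between control groups, and Ugp2 between experiments (0.22; 0.22). Signs also turned within the ranges over single livers left out. With the deletion these were -0.15 to 0.27 for Pygl, -0.18 to 0.19 for Ugp2, -0.44 to 0.091 for Ppp1r3c and -0.019 to 1.22 for Ppp1r3g. With the virus they were -0.008 to 0.14 for Gbe1, -0.094 to 0.001 for Pygl, -0.14 to 0.024 for Gys1, -0.32 to 0.081 for G6pc and -0.098 to 0.019 for Gsk3b. Between control groups they were -0.074 to 0.49 for Ppp1r3b, -0.17 to 0.43 for Ppp1r3c and -0.21 to 0.01 for Gbe1, and between experiments -0.097 to 0.32 for Pygl and -0.30 to 0.058 for Ugp2. None of these values that turned was called under the main settings or the turned one; the cause was not tested. Ppp1r3g rested on 15 to 22 counts per liver in the Ad-GFP group, where counting error is largest.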
